A study of Mus musculus with 28 samples.

Results

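The let-7 family in plasma extracellular vesicles (EVs) was followed through 9 mature arms: mmu-let-7a-5p, mmu-let-7b-5p, mmu-let-7c-5p, mmu-let-7d-5p, mmu-let-7d-3p, mmu-let-7e-5p, mmu-let-7f-5p, mmu-let-7g-5p and mmu-let-7i-5p, written below without the species prefix. They were taken by name from a table of 18710 non-coding RNA entries, of which 1240 were miRNA entries and 701 of these mature miRNAs. All 9 arms passed the filter on low counts that left 129 miRNA entries for testing. Small RNA libraries had been made from plasma EVs of 28 mice, 1 library per mouse. Wild-type (WT) mice and KLOTHO HET (KlHET) mice, which carry 1 disrupted copy of Kl (strain B6;129S5-Kl tm1Lex), had been assigned either to neuromuscular electrical stimulation (NMES) or to a control arm. The groups were 6 WT control, 6 WT NMES, 8 KlHET control and 8 KlHET NMES mice, 2 months old. NMES consisted of 5 sessions, given every other day at 9 mA and 50 Hz with 150 µs pulses, with 2 sets of 10 stimulations on each hind leg under 2.5% isoflurane. Control mice received the isoflurane without the stimulation. Blood was collected 24 h after the last session, and EVs were isolated from 400 µL of plasma. The disrupted allele is carried in all tissues. Names of all WT libraries begin with A and those of all KlHET libraries with J, and genotype and any handling that followed these name series cannot be told apart.

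MicroRNAs of the let-7 family are short RNAs cut from hairpin precursors by Drosha and Dicer. They are loaded into Argonaute proteins and lower the output of messenger RNAs that pair with the seed, the stretch near the 5′ end of the miRNA. The family is known for its rise as cells differentiate, for its block by the RNA-binding protein LIN28 and for targets such as Hmga2 and Ras genes, and several members are abundant in adult tissues and in blood. Hairpins give a 5p and a 3p arm, of which the 5p arm is the guide strand for let-7.

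The mature sequences, taken from RefSeq for GRCm38.p6 and shown because the family is defined by its seed and told apart by few bases, are printed 5′ to 3′ with bases 2 to 8, the seed, in capitals. All 9 arms matched an entry.
let-7a-5p: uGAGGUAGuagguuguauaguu
let-7b-5p: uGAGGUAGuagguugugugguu
let-7c-5p: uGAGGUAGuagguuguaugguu
let-7e-5p: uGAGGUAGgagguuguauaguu
let-7f-5p: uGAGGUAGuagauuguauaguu
let-7g-5p: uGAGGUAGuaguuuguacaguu
let-7i-5p: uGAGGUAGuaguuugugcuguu
let-7d-5p: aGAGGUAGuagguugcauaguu
let-7d-3p: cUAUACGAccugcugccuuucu

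All 8 of the 5p arms shared 1 seed, which was held by 11 of the 1679 mature miRNAs of the reference, the others being let-7k, miR-98-5p and miR-1961. The 3p arm of let-7d had a seed of its own. Counted from 1 at the 5′ end and relative to let-7a-5p, the arms carried A17G and A19G in let-7b-5p, A19G in let-7c-5p, U1A and U16C in let-7d-5p, U9G in let-7e-5p and G12A in let-7f-5p. let-7g-5p carried G12U and U18C, and let-7i-5p carried G12U, A17G, U18C and A19U. Over the 28 pairs of 5p arms the number of differing bases ran from 1 to 6. let-7a-5p and let-7f-5p, which are set against each other below, are thus told apart by a single base, and a read with an error at that base could be counted for the wrong arm.

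The arms come from several places in the genome. On chromosome 13 (GRCm38.p6, minus strand) Mirlet7a-1 at chr13:48538179-48538272, Mirlet7f-1 at chr13:48537829-48537917 and Mirlet7d at chr13:48536012-48536114 lie in exons of the long non-coding RNA gene 6720427I07Rik, with 261 and 1714 bases between neighbours. let-7a-5p is also encoded by Mirlet7a-2 at chr9:41536716-41536811, in an intron of the non-coding gene 3110039I08Rik, and let-7f-5p by Mirlet7f-2 at chrX:151912346-151912428, in an intron of Huwe1 next to Mir98. Mirlet7c-2 (chr15:85706603-85706697) and Mirlet7b (chr15:85707319-85707403) lie 621 bases apart in exons of Lncppara, and Mirlet7c-1 (chr16:77599657-77599750) lies in an intron of Mir99ahg. Mirlet7e (chr17:17830352-17830444), Mirlet7g (chr9:106178840-106178927) and Mirlet7i (chr10:122985640-122985724) are single members, in an intron of Spaca6, an intron of Wdr82 and an exon of the pseudogene D630033A02Rik. The counts of let-7a-5p, let-7c-5p and let-7f-5p therefore each sum over 2 genes that give the same mature sequence. One pair of reads counted for more than 1 entry could be seen directly: the 3p arms of let-7a-1 and let-7c-2 have the same sequence, and their counts were equal in all 28 libraries (81 in total for each).

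Depth differed between libraries and set the precision. Libraries held 531261 to 3389206 counts over all RNA classes, of which 8992 to 96496 fell on miRNA entries. Levels are given as counts relative to the library's miRNA counts after TMM scaling (CPM, per 1000000), in which libraries are aligned on the bulk of miRNAs. WT control replicate 5 stood apart, with the most counts of all libraries and a summed level of 5 neuronal miRNAs (miR-124-3p, miR-9-5p, miR-128-3p, miR-129-5p and miR-138-5p) of 161054 CPM, against at most 3009 CPM in the other WT controls. KlHET NMES replicate 5 held 44597 CPM of the same miRNAs. In KlHET control replicate 2, miR-8117 took 65.7% of the miRNA counts, the TMM factor was 0.0346 and only 126 counts fell on let-7, so that its let-7 levels rest on few reads. The log2 ratio of miR-451a to miR-23a-3p, an index of red cell lysis, had medians of 1.09, 1.56, 1.06 and 0.52 in WT control, WT NMES, KlHET control and KlHET NMES.

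Several let-7 arms stood high among the mature miRNAs of the vesicles. Over all 28 libraries the 9 arms together made up a median of 12.3% of the mature miRNA counts. Ranked among 701 mature miRNAs by median share, let-7i-5p stood at 7, let-7b-5p at 8, let-7c-5p at 9, let-7f-5p at 11, let-7a-5p at 18 and let-7g-5p at 28. The minor arms were let-7d-5p at 57, let-7d-3p at 84 and let-7e-5p at 93. Median counts per library ran from 7 for let-7e-5p to 416 for let-7i-5p, so that the 3 minor arms carry much larger counting error than the other 6. All other let-7 and miR-98 entries of the table, 24 in number, added 896 counts to the 83885 of the 9 arms, and none of the 24 could be tested.

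The share of the family in the mature miRNA counts was 11.6% at its lowest, 15.7% in the median and 30.2% at its highest in WT controls, the highest being replicate 5. It was 10.3%, 12.3% and 15.2% in WT NMES libraries. It was 0.250%, 10.2% and 18.3% in KlHET controls and 8.23%, 12.4% and 22.1% in KlHET NMES libraries. These ranges overlapped in all 4 groups. When the entries numbered 1000 and above were left out of the denominator, since some of these, such as miR-8117, took a large part of single libraries, the medians were 17.9%, 13.7%, 14.6% and 15.4% in the same order.

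The major arms supplied nearly all of these counts, but not in the same order in both genotypes. let-7f-5p made up a median of 21.7% of the family counts in WT controls and 20.2% in WT NMES libraries, against 12.8% in KlHET controls and 12.99% in KlHET NMES libraries. let-7i-5p went the other way, with medians of 16.6% and 19.1% in WT and of 26.1% and 22.2% in KlHET. let-7i-5p was the first member in 4 of 8 libraries of each KlHET group and in 0 of 12 WT libraries. let-7b-5p led in 3 of 6 libraries of each WT group. The share of let-7c-5p was more even, with group medians of 19.3% to 20.9%, and that of let-7a-5p ran from 10.4% to 12.8%. let-7g-5p, at 4.57% and 4.79% in WT and 7.20% and 7.61% in KlHET, had higher medians in KlHET. These shares are a description, because the members compete for 1 total and no test was made of them.

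**Figure D1:**
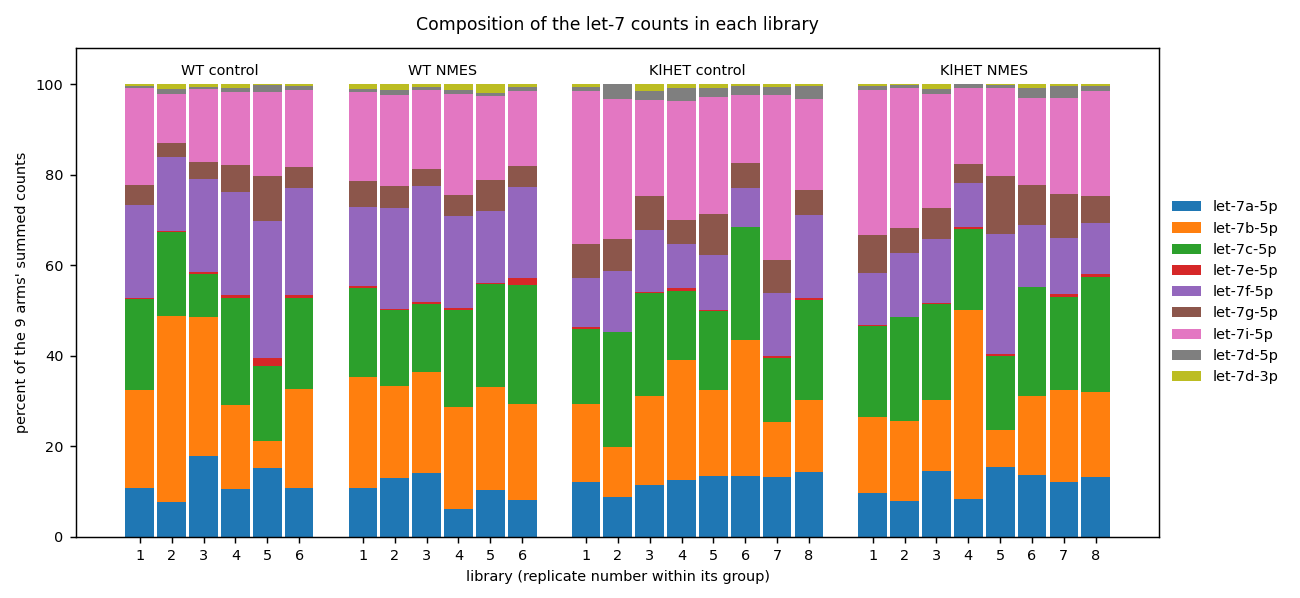
Composition of the let-7 counts. Each bar is 1 library, numbered by its replicate within the group, and the colours give each arm's percent of the summed counts of the 9 arms. The let-7f-5p segment had group medians of 21.7% and 20.2% in WT and of 12.8% and 12.99% in KlHET, and the let-7i-5p segment 16.6% and 19.1% in WT and 26.1% and 22.2% in KlHET.

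The genotypes were compared first within control mice. In plasma EVs, fewer vesicles from a cell type and less let-7 in each vesicle cannot be told apart. Of the 9 arms, 5 were lower in KlHET controls than in WT controls at an adjusted p under 0.05 and none was higher. Of all 129 miRNA entries, 24.8% were called in this comparison and 16.3% were called lower. All 9 arms had negative log2 differences, with a median of -1.03, where the median over all 129 entries was -0.21 and 57.4% of the entries were negative. Without WT control replicate 5 the median of the 9 arms was -0.45 and that of all 135 entries then tested 0.06, with 6 arms negative and 3 positive. Adjusted p-values in all such comparisons come from edgeR's quasi-likelihood test with Benjamini-Hochberg adjustment over the 129 entries. In fits without a library the adjustment was over the entries passing the filter there, 135 without WT control replicate 5 and 126 without KlHET NMES replicate 5.

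Levels of markers of blood cells and of other tissues were summed by list, and 4 of the 5 lists had lower medians in KlHET controls. The summed level of 5 erythroid miRNAs had a median of 40009 CPM in WT controls (26505 to 58272) and 27018 CPM in KlHET controls (21914 to 73911), and medians of 45312 and 28982 CPM in WT and KlHET NMES libraries. For 5 leukocyte and platelet miRNAs the medians were 7651 CPM (4297 to 9435) and 4603 CPM (3378 to 5464) in WT and KlHET controls. The 2 liver miRNAs summed to medians of 54358 and 38543 CPM, and the 3 skeletal muscle miRNAs to 5766 and 3498 CPM, while the neuronal list had medians of 2628 and 3079 CPM. Of the neuronal list, miR-128-3p (-3.17) and miR-9-5p (-4.66) were nonetheless called lower in KlHET controls (edgeR adjusted p = 0.010 for each). WT control replicate 5 held 116380 and 39635.5 CPM of them. Their medians were 2039.5 and 568 CPM in WT controls and 2477 and 148 CPM in KlHET controls. The sums hide members that went different ways. In the leukocyte and platelet list, medians in WT and KlHET controls were 138 and 278 CPM for miR-223-3p and 589 and 482 CPM for miR-150-5p. In the muscle list they were 4785 and 2974 CPM for miR-1a-3p and 152 and 247 CPM for miR-133a-3p. Of the liver pair, miR-122-5p was lower in KlHET controls (-1.52, edgeR adjusted p = 0.036) and miR-192-5p higher (1.23, edgeR adjusted p = 0.010). Endothelial and platelet miR-126a-3p was lower (-0.87, edgeR adjusted p = 0.015), while the red cell miRNAs miR-486a-5p (-0.51, edgeR adjusted p = 0.25) and miR-451a (0.67, edgeR adjusted p = 0.13) were not called. The part of these markers in the let-7 differences was not tested.

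let-7f-5p, which differs from let-7a-5p by G12A, differed most clearly. Its level in WT controls was 18013 CPM at the lowest, 24992 CPM in the median and 116494 CPM at the highest (40367 ± 38005, SD, n = 6). In KlHET controls it was 5430, 8972 and 14923 CPM (9513 ± 3129, SD, n = 8). All 8 KlHET controls lay below the lowest WT control. The share of all entries without overlap in this comparison was not counted, which also holds for let-7b-5p below. The log2 difference was -2.08 (SE 0.41, 4.23-fold lower, edgeR adjusted p = 0.00050). Without WT control replicate 5 it was -1.32 (SE 0.33, edgeR adjusted p = 0.0085), and the other 5 WT controls still lay above all KlHET controls, at 18013 to 38572 CPM. It was called lower in each of the 40 fits made, the 39 alternatives included.

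let-7b-5p was also lower in every KlHET control than in any WT control. WT controls held 20123, 23046 and 57728 CPM (lowest, median and highest), with replicates 2 and 3 far above the other 4. KlHET controls held 6478, 15554 and 18645 CPM. The log2 difference was -1.16 (SE 0.33, 2.23-fold lower, edgeR adjusted p = 0.011) and it was -1.17 without WT control replicate 5, in which let-7b-5p was not raised.

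The calls of let-7a-5p, let-7c-5p and let-7e-5p rested on WT control replicate 5. let-7a-5p had levels of 8545, 11510 and 57905 CPM in WT controls and of 5090, 9193 and 12741 CPM in KlHET controls, and the groups overlapped. Its log2 difference went from -1.24 (edgeR adjusted p = 0.015) to -0.58 (edgeR adjusted p = 0.20) without that library. let-7c-5p, which lay at 17655, 20791 and 63243 CPM in WT controls and at 9136, 15138 and 19634 CPM in KlHET controls, went from -0.92 (edgeR adjusted p = 0.010) to -0.45 (edgeR adjusted p = 0.13). For let-7c-5p, 6 of 8 KlHET controls lay below the lowest WT control. let-7e-5p, the rarest arm, had 4 to 437 counts per library in WT controls and 0 to 33 in KlHET controls, where 2 libraries had none. It went from -2.38 (SE 0.71, edgeR adjusted p = 0.014) to -0.79 (SE 0.61, edgeR adjusted p = 0.39). Of the 5 calls, 3 were thus lost without WT control replicate 5, and let-7b-5p and let-7f-5p were the 2 that held. The call of let-7a-5p was also lost without WT control replicate 3, which held 33135 CPM of it, while the other 4 calls held there.

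The remaining 4 arms did not pass the test in control mice. Their log2 differences were -1.03 for let-7g-5p (edgeR adjusted p = 0.071), -0.50 for let-7i-5p, -0.43 for let-7d-3p and -0.19 for let-7d-5p. Without WT control replicate 5 let-7g-5p stood at 0.08 (SE 0.31), let-7i-5p at 0.09 (SE 0.28) and let-7d-5p at 0.78 (SE 0.35, edgeR adjusted p = 0.13). let-7d-5p, at 1581 CPM in the median of KlHET controls (991 to 2340 CPM), lay above the WT median of 1070 CPM in 7 of 8 libraries. That WT control replicate held the highest level of all 28 libraries for 7 of the 9 arms. Its high neuronal miRNAs are given above, and the part these had in the let-7 levels was not tested.

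**Figure D2:**
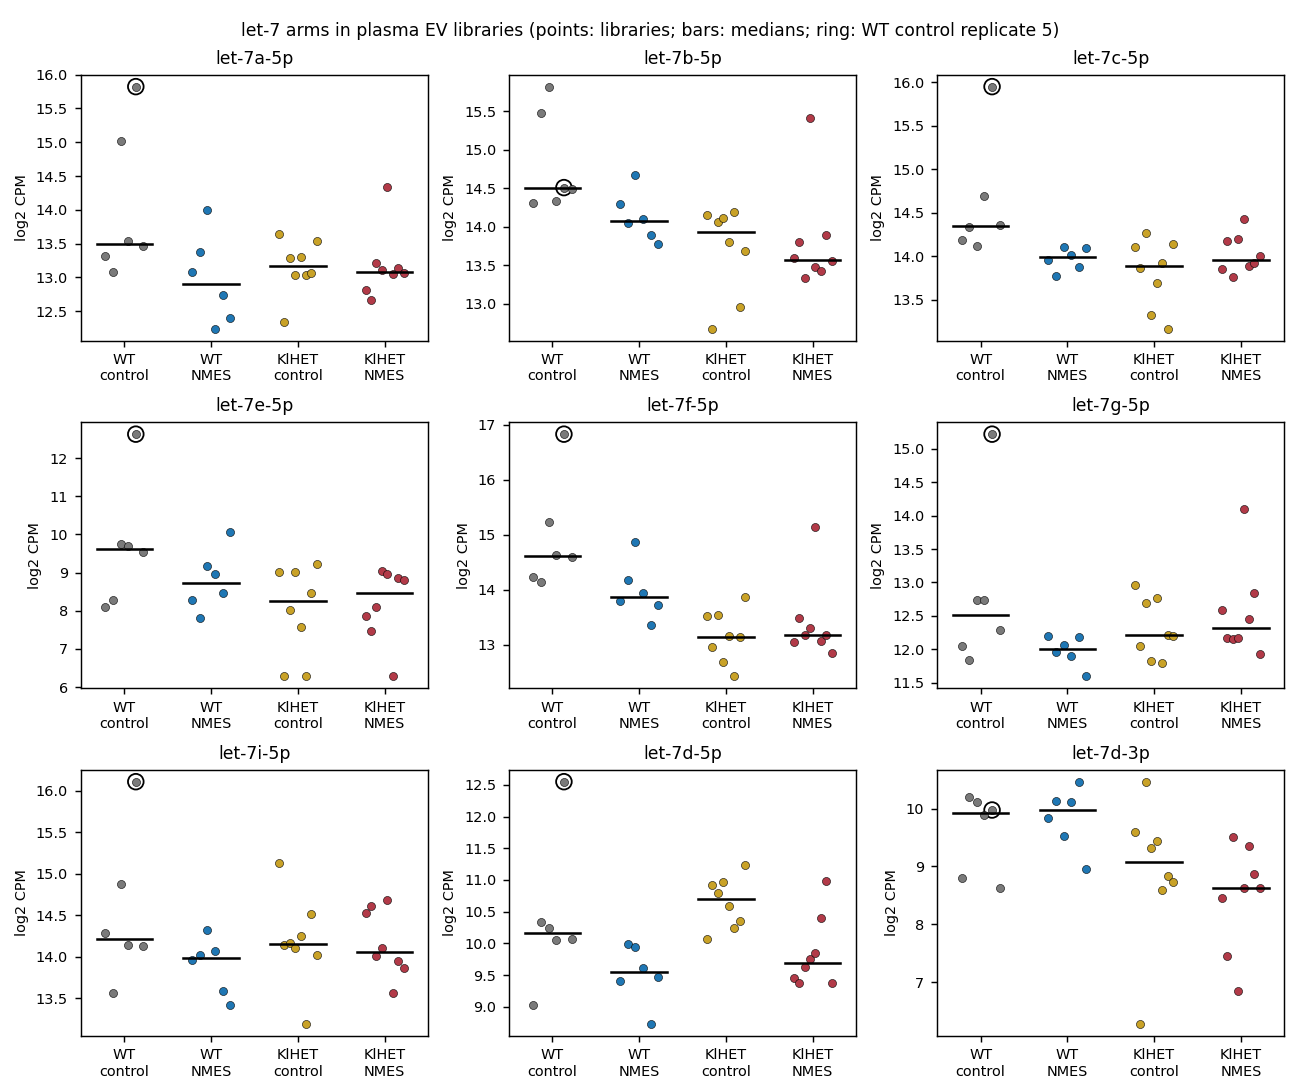
Levels of the 9 arms. Each point is 1 library, given as log2 CPM after a prior count of 2, bars are group medians, and the ring marks WT control replicate 5. let-7f-5p and let-7b-5p are lower in all 8 KlHET controls than in all 6 WT controls, and the ringed library is the highest of all 28 for 7 of the 9 arms. The share of all entries separated in this way was not counted.

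The genotypes were then compared within NMES mice, and no arm was called (0 of 9, where 3.10% of all entries were called). At an unadjusted p under 0.05 there was 1 of 9, against 15.5% of all entries. DESeq2 called 0 of 9, where 17 of all 129 entries were called, 10 higher and 7 lower. In edgeR 5 arms were higher and 4 lower in KlHET, with a median log2 difference of 0.07 where that of all entries was 0.03. let-7f-5p had levels of 10462, 14884 and 29954 CPM in WT NMES libraries and of 7259, 9195 and 35941 CPM in KlHET NMES libraries. Of the 8 KlHET NMES libraries, 6 lay below the lowest WT NMES library, and 1, KlHET NMES replicate 5, lay above the highest. The log2 difference was -0.44 (SE 0.40, edgeR adjusted p = 0.62) and it was -0.85 (SE 0.33, edgeR adjusted p = 0.13) without that KlHET library, which is the one with 44597 CPM of neuronal miRNAs. The smallest p of the family belonged to let-7d-3p, with a log2 difference of -1.43 (SE 0.50, unadjusted p = 0.0074, edgeR adjusted p = 0.095). Its levels were 419, 929 and 1321 CPM in WT NMES libraries and 37.5, 317 and 650 CPM in KlHET NMES libraries, with 6 of 8 KlHET libraries below the lowest WT library.

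With the genotype difference averaged over the treatments, 4 of the 9 arms were lower in KlHET and none was higher, where 27.9% of all entries were called and 14% were called lower. The log2 differences were -1.26 for let-7f-5p (SE 0.29, edgeR adjusted p = 0.0019), -0.66 for let-7b-5p (SE 0.24, edgeR adjusted p = 0.034), -1.55 for let-7e-5p (SE 0.51, edgeR adjusted p = 0.022) and -0.93 for let-7d-3p (SE 0.35, edgeR adjusted p = 0.044). Without WT control replicate 5 the calls of let-7f-5p (-0.85, edgeR adjusted p = 0.0070) and let-7b-5p (-0.66, edgeR adjusted p = 0.029) held, and let-7e-5p (-0.74) and let-7d-3p (-0.86) no longer passed. let-7g-5p and let-7i-5p, with -0.14 and -0.11, and let-7d-5p, with 0.11, were not called.

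A ratio between arms of the same library does not depend on how libraries are scaled. The ratio of let-7f-5p to let-7a-5p counts, which was chosen after the levels had been seen and is given without a test, had medians of 2.06 in WT controls and 1.79 in WT NMES libraries, and of 0.98 in KlHET controls and 1.09 in KlHET NMES libraries. In WT controls it ran from 1.16 to 2.20 and in WT NMES libraries from 1.55 to 3.27. In KlHET it ran from 0.65 to 1.55 in controls and from 0.86 to 1.76 with NMES. All 16 KlHET libraries lay below the WT median of 1.95, and 10 of them lay below the lowest WT library. WT control replicate 5, at 2.01, and KlHET NMES replicate 5, at 1.74, each lay within the range of their own group, although both held the highest let-7f-5p levels of their groups. The ratio of let-7f-5p to let-7i-5p, chosen in the same way, had medians of 1.39, 1.01, 0.45 and 0.57 in WT control, WT NMES, KlHET control and KlHET NMES, and 14 of 16 KlHET libraries lay below the lowest WT library. let-7a-5p and let-7f-5p share the cluster on chromosome 13 but are each also encoded at a locus of their own. let-7i-5p comes from a locus apart from both genes of let-7f-5p. Neither ratio says which of the arms moved.

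The let-7d hairpin was counted on both arms, and the balance of the arms differed by genotype. The log2 ratio of 5p to 3p counts (each with 0.5 added) was 0.83 ± 1.07 in WT controls, -0.33 ± 0.88 in WT NMES, 1.63 ± 0.98 in KlHET controls and 1.61 ± 1.15 in KlHET NMES (SD, n = 6, 6, 8 and 8). The 5p arm had more counts than the 3p arm in 6 of 6, 2 of 6, 8 of 8 and 8 of 8 libraries. In WT NMES libraries the 3p arm, the passenger strand of the hairpin, thus outnumbered the 5p arm in 4 of 6. In NMES mice the ratio was higher in KlHET by 1.95 (exact permutation test, two-sided, p = 0.0027, adjusted p = 0.0080 over 6 comparisons), with all 8 KlHET libraries above the WT median. With both treatments pooled it was higher in KlHET by 1.37 (permutation test with 100000 resamples, two-sided, p = 0.0023, adjusted p = 0.0080), with 15 of 16 KlHET libraries above the WT median. In control mice the difference of 0.80 did not pass (exact permutation test, p = 0.15, adjusted p = 0.22), although all 8 KlHET controls lay above the WT median of 0.22.

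Counts behind these ratios were small. In WT NMES libraries 10 to 21 counts fell on the 5p arm and 8 to 38 on the 3p arm. In KlHET NMES libraries these were 11 to 25 and 1 to 10. The extreme KlHET NMES value of 3.84 came from 21 counts against 1, and the KlHET control value of 3.17 from 4 counts against 0, in the library with 126 let-7 counts. Leaving out single libraries gave 1.63 to 2.16 for the difference in NMES mice, and the call held each time. With 5 in place of 0.5 added to each count, which draws ratios of few counts towards 0, the difference was 1.31 (exact permutation test, p = 0.0027, adjusted p = 0.016).

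**Figure D3:**
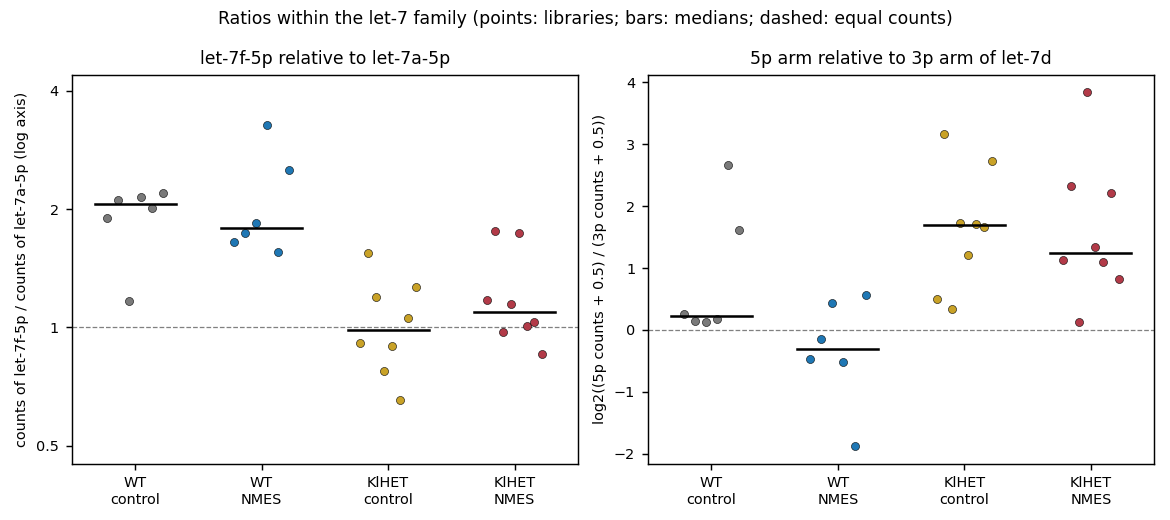
Ratios within libraries. The left panel plots let-7f-5p counts over let-7a-5p counts on a log axis and the right panel the log2 ratio of let-7d-5p to let-7d-3p counts, each point being 1 library and each bar a group median. All 16 KlHET libraries lie below the WT median of 1.95 on the left, and on the right all 8 KlHET NMES libraries lie above the WT NMES median of -0.30.

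NMES and control mice were compared within each genotype. In WT mice none of the 9 arms passed the correction (0 of 9, where 0% of all entries were called), but 8 of 9 had an unadjusted p under 0.05, against 17.1% of all entries. DESeq2 called 1 arm, let-7a-5p, where 4 of all 129 entries were called, with 7 arms at an unadjusted p under 0.05. All 8 of the 5p arms were at negative differences, from -0.80 for both let-7b-5p and let-7c-5p to -1.79 for let-7e-5p, and let-7d-3p was at 0.21. let-7c-5p was the one arm without overlap, with 13885, 16192 and 17528 CPM in WT NMES libraries and at least 17655 CPM in WT controls. Its log2 difference was -0.80 (SE 0.28, edgeR adjusted p = 0.081). The share of all entries without overlap was not counted here either.

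These differences in WT mice shrank without WT control replicate 5. The median over the 9 arms went from -1.25 to -0.27, and the number of arms at an unadjusted p under 0.05 from 8 to 1. let-7a-5p went from -1.35 (SE 0.41, edgeR adjusted p = 0.069) to -0.66 (SE 0.33), let-7g-5p from -1.42 (SE 0.46) to -0.25 (SE 0.33) and let-7d-5p from -1.39 (SE 0.47) to -0.36 (SE 0.37). let-7b-5p, which was not raised in that library, changed least, from -0.80 (SE 0.36) to -0.75 (SE 0.35). When WT control replicate 1 was left out instead, 4 arms were called lower with NMES (let-7a-5p, let-7d-5p, let-7f-5p and let-7g-5p). In that fit 9 of all 137 entries were called, all of them lower. Of the 28 fits with a single library left out, it was the only 1 to call any arm.

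In KlHET mice no arm was called either (0 of 9, where 4.65% of all entries were called). At an unadjusted p under 0.05 there were 0 of 9, against 10.9% of all entries. DESeq2 called 0 of 9, where 1 of all 129 entries was called. In edgeR the arms were spread around 0, with 5 higher and 4 lower, and a median log2 difference of 0.06. The sizes farthest from 0 belonged to the 2 arms of let-7d. let-7d-5p stood at 991, 1581 and 2340 CPM in KlHET controls and at 583, 752 and 1937 CPM in KlHET NMES libraries, with 6 of 8 NMES libraries below the lowest control. Its log2 difference was -0.78 (SE 0.41, edgeR adjusted p = 0.53), and that of let-7d-3p was -0.79 (SE 0.48, edgeR adjusted p = 0.58). The differences of both arms of the hairpin were of like size, and their ratio differed by -0.017 between NMES and control KlHET mice (exact permutation test, p = 0.98). let-7f-5p stood at 0.39 (SE 0.38) and at 0.08 (SE 0.31) without KlHET NMES replicate 5.

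The NMES differences of both genotypes were set against each other directly. None of the 9 arms was called as different in its NMES response between genotypes (0 of 9, where 2.33% of all entries were called). At an unadjusted p under 0.05 there were 5 of 9, against 16.3% of all entries. DESeq2 called 0 of 9, where 1 of all 129 entries was called, and 4 arms were under 0.05 unadjusted. The largest interaction terms were 1.78 for let-7g-5p (SE 0.61, edgeR adjusted p = 0.11), 1.66 for let-7e-5p (SE 1.02) and 1.64 for let-7f-5p (SE 0.58, edgeR adjusted p = 0.11). The terms were positive for 8 of 9 arms, with a median of 0.99 where that of all entries was 0.10. Without WT control replicate 5 the median was 0.55, the terms of let-7g-5p, let-7e-5p and let-7f-5p were 0.70 (SE 0.43), 0.11 (SE 0.87) and 0.94 (SE 0.47), and 1 of 9 had an unadjusted p under 0.05. Averaged over the genotypes, 0 of 9 arms were called as different with NMES (0% of all entries). At an unadjusted p under 0.05 there were 2 of 9, against 17.1% of all entries. DESeq2 called 0 of 9, where 0 of all 129 entries were called, and 2 arms were under 0.05 unadjusted. The let-7d arm ratio differed by -1.17 between NMES and control WT mice (exact permutation test, p = 0.061, adjusted p = 0.12).

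**Figure D4:**
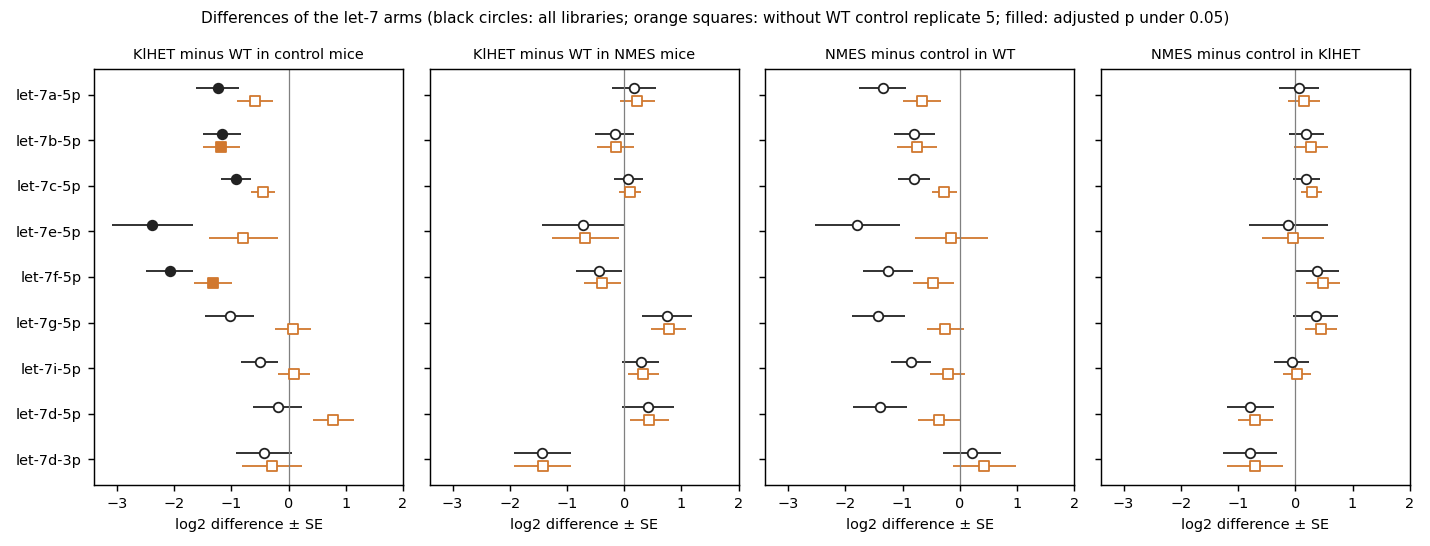
Log2 differences of the 9 arms with standard errors in 4 comparisons. Black circles are fits with all libraries, orange squares fits without WT control replicate 5, and filled symbols have an adjusted p under 0.05. let-7b-5p (-1.16 and -1.17) and let-7f-5p (-2.08 and -1.32) are filled in both fits for KlHET against WT controls, and the WT differences with NMES lie nearer 0 without that library.

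The members did not form 1 block across libraries. Over the 36 pairs of arms, Spearman's correlation of log2 CPM in the 28 libraries had a median of 0.29 and ran from -0.07 for let-7d-3p with let-7i-5p to 0.71 for let-7c-5p with let-7f-5p. These are descriptions over libraries that share groups and depth differences. let-7d-5p stood apart from let-7f-5p (-0.04) and let-7b-5p (0.02), and its correlation with the other arm of its own hairpin, let-7d-3p, was 0.09. let-7a-5p and let-7f-5p, which share a cluster on chromosome 13, had 0.68. The spread between mice also varied by member: the biological coefficient of variation was lowest for let-7c-5p (0.37) and highest for let-7e-5p (0.84), where the median over all tested entries was 0.61.

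Among the other miRNAs, those most like let-7f-5p over the 28 libraries were miR-26a-5p (0.87), miR-100-5p (0.76), miR-30e-3p (0.73), miR-532-5p (0.69) and miR-10a-5p (0.66). Those most like let-7d-5p followed it less closely, with miR-29a-3p at 0.53, miR-1981-5p at 0.53, miR-127-3p at 0.44, miR-7a-5p at 0.40 and miR-328-3p at 0.39. Several let-7 hairpins are transcribed together with miRNAs of the miR-99/100 and miR-125 families, and Mirlet7f-2 lies next to Mir98. Of the 6 neighbours listed, the 5 of these families could be tested and miR-98-5p could not. In control mice, where 24.8% of all entries were called and 16.3% were called lower, 1 of these 5 was called lower in KlHET. This was miR-100-5p, with a log2 difference of -2.36 (SE 0.43, edgeR adjusted p = 0.00021). With treatments averaged, miR-100-5p (-1.83, edgeR adjusted p = 5.0e-05) and miR-99b-5p (-0.95, edgeR adjusted p = 0.0025) were called lower in KlHET. Of all entries, 27.9% were called there and 14% were called lower. miR-99a-5p, which is transcribed with let-7c-1, stood at -0.00053. None of the 5 was called between NMES and control in either genotype (edgeR, adjusted p of at least 0.39 for each), where 0% of all entries were called in WT and 4.65% in KlHET.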

How the data were processed

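Counts per RNA entry and library were used as deposited. The authors had isolated EVs from plasma, made small RNA libraries with a ligation-based kit and sequenced them as single-end reads, and per the labels and the study's methods they aligned reads with STAR 2.5.3a, counted them with COMPSRA 1.0.3 on mm10 and used DESeq2 1.42.1. The counter's handling of reads shared between arms, and any trimming, are not given in the sources used here. From the raw counts, miRNA entries were filtered with filterByExpr, scaled by TMM and fitted with 4 group means in edgeR 4.0.16 (quasi-likelihood test, Benjamini-Hochberg adjustment over the 129 entries, R 4.3.3). Groups came from the sample labels, which give no replicate numbers. Libraries are separate mice, and replicate numbers only name them in accession order.

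CPM values use edgeR, log2 CPM a prior count of 2. Let-7d arm ratios were compared by two-sided permutation tests (scipy 1.17.1), exact except where both treatments were pooled, and adjusted over 6 comparisons. Alternatives were DESeq2 1.42.0, other scalings and filters, a robust fit, fewer groups or libraries, other pseudocounts and other denominators. Filters were run anew in each alternative edgeR fit, so the number of entries adjusted over varied. The omission of 3 libraries together was chosen after seeing the data. Scripts were tested on simulated data. The members, gene lists and comparisons were chosen with earlier results of these data known. The text names the 9 listed arms, cluster neighbours, other let-7 entries with at least 10 counts in at least 6 libraries (none reached this) and the 5 miRNAs most correlated with let-7d-5p and with let-7f-5p. Sequences and coordinates are from RefSeq and host genes from GENCODE, both on the same build.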

Additional observations from a re-analysis of the deposited data

Results flagged for a closer look

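In groups of 6 and 8 libraries, a value was set aside for a closer look where its gap to the nearest other library exceeded Dixon's critical fraction of the group's range at the 95% level, which flags about 1 in 20 groups by chance. Of 44 sets of values looked at (each arm's CPM, the let-7d arm ratio and the family share in 4 groups), 12 held such a library.

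WT control replicate 5 accounted for 7 of the 12. It held 63243 CPM of let-7c-5p (next highest WT control 26399), 5923 CPM of let-7d-5p (next 1212), 6237 CPM of let-7e-5p (next 777), 116494 CPM of let-7f-5p (next 38572), 38108 CPM of let-7g-5p (next 6782) and 70522 CPM of let-7i-5p (next 30133), and let-7 made up 30.2% of its mature miRNA counts (next 16.8%). let-7b-5p and let-7d-3p were not raised in it. The same library held 161054 CPM of the 5 neuronal miRNAs listed and 69280 CPM of the 6 cluster neighbours (at most 24068 CPM in the other WT controls), and their part in its let-7 levels was not tested.

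KlHET NMES replicate 5 accounted for 4, with 20636 CPM of let-7a-5p (next highest KlHET NMES library 9429), 35941 CPM of let-7f-5p (next 11315) and 17522 CPM of let-7g-5p (next 7283), and a let-7 share of 22.1% (next 14.4%). It too held high neuronal miRNAs, at 44597 CPM. KlHET NMES replicate 4 held 43623 CPM of let-7b-5p, where the next library held 15187.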

How the results depend on the processing

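let-7f-5p was called lower in KlHET controls in all 40 fits, and let-7b-5p in 38. On miRNA totals (-1.10) and with no filter (-1.16) let-7b-5p was still lower but not called. The cause of the other changes was not tested. In WT mice DESeq2 called 1 arm with NMES (4 of all 129 entries). Leaving out single libraries gave 0 to 4, the latter only without WT control replicate 1 (9 of all 137 entries). For KlHET against WT controls 5 arms were called (32 of all 129 entries). This was 1 on miRNA totals (14 of 129), 2 with no filter (47 of 1093) and 2 with only the groups compared (20 of 111). It was 2 without WT control replicate 5 and KlHET control replicate 2 (20 of 133), and 2 without these and KlHET control replicate 8 (21 of 130). With single libraries left out it was 2 to 6. The low end was the fit without WT control replicate 5 (25 of 135) and the high end that without replicate 1 (34 of 137). With treatments averaged, 4 were called (36 of all 129 entries). This was 1 on totals of all RNA classes (17 of 132), 1 on miRNA totals (16 of 129) and 2 with no filter (32 of 1093). It was 2 at 10 counts in 6 libraries (35 of 140) and 2 with mature arms only (30 of 107). It was 2 without those 2 libraries (32 of 133) and 2 without those 3 (39 of 130). With single libraries left out it was 2 to 4, where 30 to 39 of all entries were called. On totals of all RNA classes the median of all entries for KlHET against WT controls was -0.82 in place of -0.21, and let-7f-5p stood at -2.29. The let-7d arm ratio between NMES and control KlHET mice changed sign with a pseudocount of 1 (0.016) and ran from -0.33 to 0.20 with single libraries left out, and was not called in any of these.

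Over all miRNA entries the family share had medians of 12.97%, 10.2%, 6.73% and 9.15% in WT control, WT NMES, KlHET control and KlHET NMES, so that KlHET NMES lay below WT NMES rather than above it. It was 0.433%, 0.218%, 0.125% and 0.197% of the counts of all RNA classes in the same order. As a share of the WT control total, in which replicate 5 weighs most, let-7e-5p was 1.17%, let-7f-5p 26.8% and let-7g-5p 7.82% of the family, and let-7b-5p 13.6% against a median of 21.7%. No paired analysis was made, because each library is a separate mouse and the labels give no pairing between mice. Intervals of small counts limit let-7e-5p and both let-7d arms most.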
